A study of Mus musculus with 4 samples.

Results

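Mitochondrial ribosomal protein genes were followed across 4 expression arrays of mouse colonic epithelium. The genes were taken by name: every gene whose only symbol in the probe annotation begins with Mrpl or Mrps and a digit, pseudogenes left out. This gave 76 of the 18194 named genes on the arrays, 47 with an Mrpl name and 29 with an Mrps name, covered by 156 probe sets. For a gene with several probe sets, the brightest on average was read. Mrpl30 and Mrpl53 have only probe sets that also match another gene, so they are not among the 76.

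The arrays form 2 pairs, all from the colon of male mice. The first pair came from H2B-GFP mice, in which a tetracycline-responsive element drives a histone fused to green fluorescent protein. These mice received doxycycline for 7 days and none for the next 2 days, so that dividing crypt cells diluted the label. Sorted cells with little label (GFPlow, called proliferating by the labels) were one group and sorted cells that kept it (GFPhigh, called non-proliferating) the other. The second pair was made from isolated crypts of mice of a doxycycline-inducible β-catenin line. In one group (Dox +) the mice had drinking water with doxycycline (2.0 mg/ml) over 5 days, and in the other (Dox -) mice labelled with the same genotype were left untreated. Doxycycline itself and the induced gene therefore cannot be told apart in the second pair. The sources used here do not state strain, age, how many mice stand behind an array, or what drives the inducible gene. Each group was 1 array, so no value below has a replicate error, no test between groups was possible, and precision is limited by the array count.

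Mitochondria keep their own ribosome, which makes the few proteins encoded in mitochondrial DNA, all of them parts of the respiratory chain and ATP synthase. Its ribosomal RNAs come from mitochondrial DNA, but every one of its proteins is encoded in the nucleus, made in the cytosol and imported. Some of these proteins descend from bacterial ribosomal proteins, and others exist only in mitochondrial ribosomes. Genes for ribosome production, in the cytosol and in mitochondria, are commonly raised in growing cells, and Myc is a known activator of both.

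All 76 genes were measured on all 4 arrays. Values are log2 expression as deposited, and 5 was taken as the floor under which a value was not read. The 76 genes ran from 6.20 to 13.37 over the 4 arrays, so no difference among them was limited by the floor. The arrays were alike in depth of signal, with 16945 to 17462 probe sets at or above the floor. Defining epithelial genes such as Epcam and Cdh1 were measured on every array (8 of 8 listed), whereas all 5 smooth muscle genes and all 4 endothelial genes listed were under the floor throughout.

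The first comparison set proliferating against non-proliferating crypt cells. The mitochondrial ribosomal protein genes stood slightly but broadly higher in GFPlow. Of the 76, 67 (88.2%) had a higher value in GFPlow, whereas 53.2% of the 9381 measured genes did. The median difference of the 76 was 0.40 (log2, 1.32-fold), beside 0.04 for all measured genes, and the middle 50% of the 76 lay between 0.19 and 0.59. Large single differences were rare. At least 1.5-fold higher in GFPlow were 20 of the 76 (26.3%), beside 18.4% of all measured genes, and 0 were 1.5-fold lower, beside 12.6%. At least 2-fold higher were 2 of the 76 (2.63%), which is below the 8.81% among all measured genes, and 0 were 2-fold lower, beside 4.3%. Among the 6906 named genes whose mean level lay in the same range as the 76 (7.54 to 13.09), 52.5% were higher in GFPlow, 7.05% were at least 2-fold higher and 3.27% at least 2-fold lower.

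The second comparison set crypts after induction of β-catenin against uninduced crypts. The shift had nearly the same size. In Dox +, 66 of the 76 genes (86.8%) had a higher value, whereas 55% of the 9537 measured genes did. Their median difference was 0.44 (1.36-fold), beside 0.06 for all measured genes, and the middle 50% lay between 0.21 and 0.66. At least 1.5-fold higher in Dox + were 22 genes (28.9%), beside 17.4% of all measured genes, and 0 were 1.5-fold lower, beside 11.7%. At least 2-fold higher were 3 genes (3.95%), beside 6.93%, and 0 were 2-fold lower, beside 5.35%. The 3 became 1 of 58 once probe sets prone to match several transcripts were dropped. Of the 6909 genes in the same range of levels, 54.5% were higher in Dox +, 5.04% were at least 2-fold higher and 4.6% at least 2-fold lower.

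**Figure D1:**
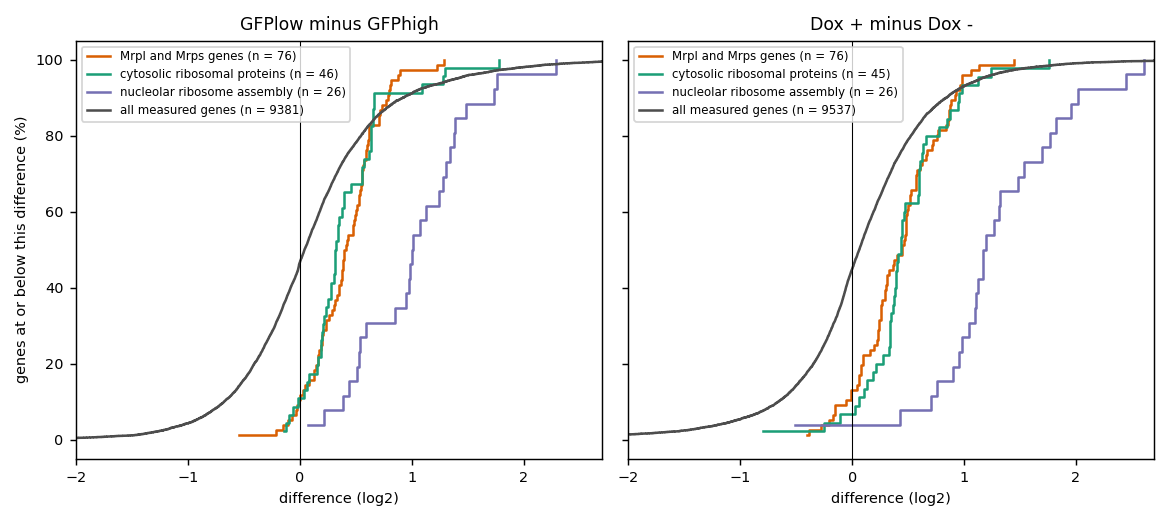
Cumulative share of genes (%) against their log2 difference, GFPlow minus GFPhigh on the left and Dox + minus Dox - on the right, for the 76 Mrpl and Mrps genes, cytosolic ribosomal protein genes, nucleolar ribosome assembly genes and all measured genes. The curve of the 76 genes crosses 50% near its medians of 0.40 and 0.44, right of that of all genes (0.04 and 0.06), and has few genes in either tail.

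The genes differed among themselves, and the small subunit, which reads the messenger RNA, held both of the genes past 2-fold in the sorted cells. Mrps28, a small subunit protein, read 10.61 in GFPlow and 9.32 in GFPhigh, a difference of 1.29 (2.45-fold). In the second pair it read 10.12 in Dox + and 9.64 in Dox -, a difference of 0.48. Mrps28 was thus higher in GFPlow and in Dox +, with the wider gap in the sorted cells.

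Mrps18b is one of 3 mammalian relatives of the bacterial protein S18. It read 10.43 in GFPlow and 9.20 in GFPhigh, a difference of 1.22 (2.33-fold), and 10.39 in Dox + and 9.46 in Dox -, a difference of 0.93 (1.90-fold). Its relatives had smaller or opposite differences. Mrps18a, which belongs to the large subunit despite its name, read 11.08 in GFPlow and 10.69 in GFPhigh (0.39), and 10.25 in Dox + and 10.19 in Dox - (0.06). Mrps18c, which takes the place of S18 in the small subunit, read 11.80 in both GFPlow and GFPhigh, and 11.37 in Dox + against 11.65 in Dox - (-0.28). Each of the 3 was read from a single probe set, and that of Mrps18b has a name ending in _a_at, a mark of probes that match several transcripts.

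Other small subunit proteins with bacterial counterparts were mostly higher in both pairs. Mrps12, which sits at the decoding centre, read 11.63 in GFPlow and 10.92 in GFPhigh (0.71), and 10.34 in Dox + and 9.50 in Dox - (0.84, 1.79-fold). Mrps7 read 9.88 in GFPlow and 9.35 in GFPhigh (0.53), and 9.75 in Dox + and 8.77 in Dox - (0.98, 1.97-fold). Mrps14 read 12.79 in GFPlow and 12.00 in GFPhigh (0.79), and 11.99 in Dox + and 11.40 in Dox - (0.58), although its second measured probe set gave 0.18 and -0.09. In this group Mrps10 and Mrps2 had differences of 0.54 and 0.56 in favour of GFPlow and of 0.66 and 0.61 in favour of Dox +, and a second probe set of Mrps2 gave 0.48 and 1.66. Mrps5 and Mrps17 differed by 0.48 and 0.57 in the sorted cells and by 0.87 and 0.37 in the induced crypts. Mrps16 read 11.55 in GFPlow and 11.15 in GFPhigh (0.39), and 10.58 in Dox + and 10.11 in Dox - (0.47). Mrps9 read 10.76 in GFPlow and 10.29 in GFPhigh (0.48), and 10.55 in Dox + and 10.25 in Dox - (0.29), with its probe sets running from -0.01 to 1.06 in the sorted cells. Of the 16 genes in the group, 13 were higher in GFPlow (median 0.50) and 12 in Dox + (median 0.42).

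Mrps6, the small subunit counterpart of bacterial S6, was lower in both pairs. So was Mrps18c, although in the sorted cells by less than the rounding of its values. Mrps6 read 12.27 in GFPlow and 12.82 in GFPhigh, a difference of -0.55, and 11.48 in Dox + and 11.69 in Dox -, a difference of -0.21. Its second probe set was lower in the same groups, by -0.66 and -0.02. Mrps6 had the lowest difference of the 76 in the sorted cells. Mrps24 read 12.87 in GFPlow and 12.57 in GFPhigh (0.31), but 11.55 in Dox + and 11.72 in Dox - (-0.17). Mrps15 read 11.04 in GFPlow and 10.50 in GFPhigh (0.54), but 10.18 in Dox + and 10.23 in Dox - (-0.05). These genes of the small subunit were higher in one pair alone. Mrps11 read 8.72 in GFPlow and 8.52 in GFPhigh (0.19), and 8.10 in Dox + and 8.06 in Dox - (0.04). Mrps21 read 11.22 in GFPlow and 11.26 in GFPhigh (-0.04), and 10.94 in Dox + and 10.88 in Dox - (0.06). A second probe set of Mrps21 read 4.81 in GFPlow, under the floor, and 6.13 in GFPhigh, which puts its difference at -1.13 or below.

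Small subunit proteins found only in mitochondria had medians of 0.39 (7 of 10 higher in GFPlow) and 0.36 (10 of 10 higher in Dox +). Mrps18b was counted here, and Mrps18a with the large subunit proteins found only in mitochondria, although both are relatives of bacterial S18. Only Mrps18c was counted as its counterpart. Mrps27, a protein with pentatricopeptide repeats, a motif of RNA-binding proteins, had the widest gap between its 2 differences among the 76. It read 8.35 in GFPlow and 8.50 in GFPhigh (-0.15), but 8.62 in Dox + and 7.55 in Dox - (1.06, 2.09-fold). Quantile normalization and a loess correction of the second pair lowered this to 0.92 and 0.91, under 2-fold. Mrps35 read 11.30 in GFPlow and 10.69 in GFPhigh (0.61), and 10.38 in Dox + and 9.40 in Dox - (0.98, 1.98-fold). Mrps22 read 10.68 in GFPlow and 9.87 in GFPhigh (0.81), and 10.95 in Dox + and 10.28 in Dox - (0.67). Mutations of MRPS22 and MRPS34 in people cause defects of the respiratory chain. For Mrps34 the values were 12.28 in GFPlow and 11.86 in GFPhigh (0.43), and 10.53 in Dox + and 10.21 in Dox - (0.32). Mrps26, Mrps25 and Mrps31 lay between 0.19 and 0.53 in both pairs, and 2 more members of the group were higher in Dox + alone. Mrps23 read 10.70 in GFPlow and 10.73 in GFPhigh (-0.02), and 11.59 in Dox + and 11.33 in Dox - (0.26). Mrps33 read 10.61 in GFPlow and 10.72 in GFPhigh (-0.11), and 10.88 in Dox + and 10.64 in Dox - (0.24).

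**Figure D2:**
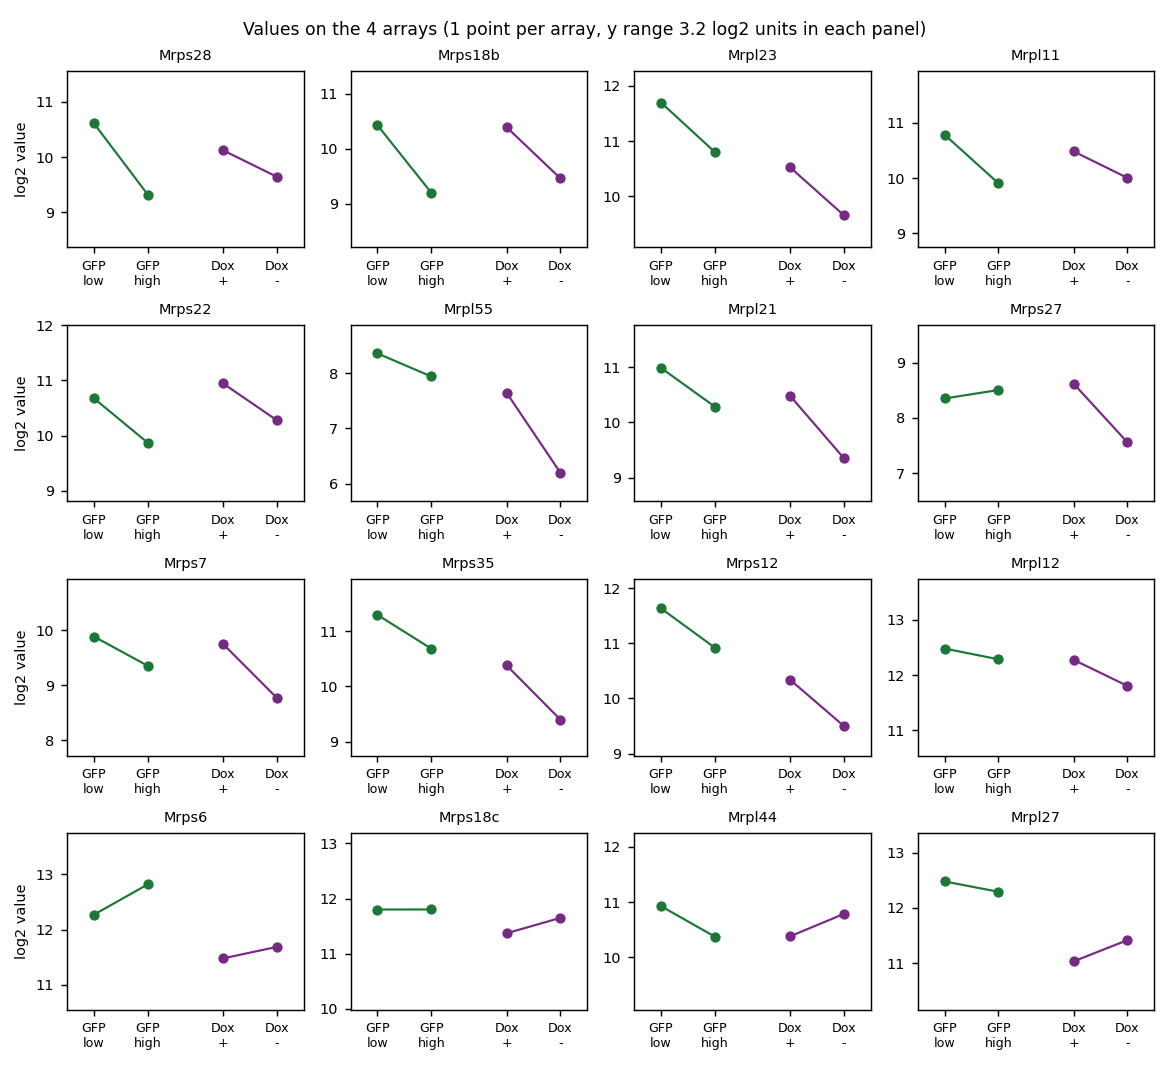
Log2 value of 16 Mrpl and Mrps genes on each of the 4 arrays, 1 point per array, with lines joining the arrays of a pair (GFPlow and GFPhigh in green, Dox + and Dox - in purple). Mrps28 and Mrps18b slope most steeply in the sorted cells, Mrpl55 in the induced crypts, and Mrps6 runs the other way in both pairs.

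The large subunit forms the peptide bonds. Among its 29 proteins with bacterial counterparts, 26 were higher in GFPlow (median 0.37) and 27 in Dox + (median 0.49). Mrpl55 had the largest difference of the 76 in the induced crypts. It read 7.65 in Dox + and 6.20 in Dox - (1.45, 2.73-fold), and 8.36 in GFPlow and 7.94 in GFPhigh (0.42). The probe set of Mrpl55 read 6.20 in Dox -, the value closest to the floor among all 76 genes.

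Mrpl21 read 10.48 in Dox + and 9.35 in Dox - (1.13, 2.19-fold), and 10.99 in GFPlow and 10.28 in GFPhigh (0.70). A second probe set, at 4.87 in Dox + and 5.01 in Dox -, lay at the floor and gave -0.01, so the mean of both was 0.56. Mrpl23, near the exit of the tunnel through which the new protein leaves, read 11.70 in GFPlow and 10.80 in GFPhigh (0.90, 1.86-fold), and 10.52 in Dox + and 9.65 in Dox - (0.87, 1.83-fold). Its gap was of similar size in both pairs. Other proteins of the tunnel exit had smaller gaps. Mrpl22 differed by 0.61 in the sorted cells and 0.57 in the induced crypts, and Mrpl47 by 0.13 and 0.52. Mrpl24 read 13.12 in GFPlow and 12.88 in GFPhigh (0.23), and 12.84 in Dox + and 12.53 in Dox - (0.31).

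The stalk of the large subunit, where translation factors bind, is built from Mrpl10, Mrpl11 and Mrpl12, and these were not alike. Mrpl11 read 10.79 in GFPlow and 9.91 in GFPhigh (0.88, 1.84-fold), and 10.48 in Dox + and 10.00 in Dox - (0.48). Its other measured probe sets gave 0.44 and 0.45 in the sorted cells, but 0.06 and 0.001 in the induced crypts. Mrpl12 read 12.48 in GFPlow and 12.29 in GFPhigh (0.19), and 12.28 in Dox + and 11.80 in Dox - (0.47). Mrpl10 read 10.25 in GFPlow and 10.26 in GFPhigh, and 10.23 in Dox + and 10.24 in Dox -, a difference of -0.01 in each pair.

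Among the remaining large subunit proteins with bacterial counterparts, several had a wider gap in the induced crypts. Mrpl19 read 10.16 in Dox + and 9.19 in Dox - (0.97, 1.95-fold), and 10.24 in GFPlow and 9.86 in GFPhigh (0.38). Mrpl34 read 9.74 in Dox + and 8.82 in Dox - (0.92, 1.89-fold), and 10.66 in GFPlow and 10.40 in GFPhigh (0.25). Mrpl32, a protein matured by a mitochondrial protease, differed by 0.75 in the induced crypts and 0.16 in the sorted cells. Mrpl35 and Mrpl36 differed by 0.85 and 0.71 in the induced crypts and by 0.59 and 0.41 in the sorted cells. Mrpl3, next to the peptidyl transferase centre, read 10.76 in GFPlow and 10.14 in GFPhigh (0.61), and 10.54 in Dox + and 10.04 in Dox - (0.50), and its second measured probe set gave 1.26 and 0.66. Mrpl2 and Mrpl4 were nearer to 0, at 0.38 and 0.23 in the sorted cells and 0.23 and 0.22 in the induced crypts.

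In the opposite direction stood Mrpl27, at 11.03 in Dox + against 11.42 in Dox - (-0.38), while it read 12.48 in GFPlow and 12.29 in GFPhigh (0.19). Its second probe set, lower on every array, gave -0.26 in the sorted cells and -0.23 in the induced crypts. Mrpl33 read 11.17 in GFPlow and 11.39 in GFPhigh (-0.21), and 11.13 in Dox + and 11.04 in Dox - (0.10). Mrpl20 read 11.22 in GFPlow and 11.30 in GFPhigh (-0.07), and 11.25 in Dox + and 10.73 in Dox - (0.52). Both were thus lower in GFPlow and higher in Dox +. Mrpl28 read 11.64 in GFPlow and 11.15 in GFPhigh (0.49), and 10.85 in Dox + and 10.38 in Dox - (0.48), while its other probe sets lay between -0.06 and 0.10. Of the large subunit proteins with bacterial counterparts not yet described, Mrpl16, Mrpl13 and Mrpl17 differed by 0.62, 0.60 and 0.50 in the sorted cells and by 0.44, 0.27 and 0.49 in the induced crypts. Mrpl14, Mrpl18, Mrpl1 and Mrpl9 were nearer to 0 in the sorted cells (0.14, 0.31, 0.16 and 0.08) and differed by 0.52, 0.31, 0.08 and 0.08 in the induced crypts. The other probe sets of Mrpl9 gave 0.44 and 0.15 in the sorted cells and 0.52 and 0.51 in the induced crypts.

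The large subunit proteins found only in mitochondria were all higher in GFPlow (20 of 20, median 0.49), and 16 of 20 were higher in Dox + (median 0.26, or 0.39 over the 16 left without probe sets prone to match several transcripts). With the mean of a gene's probe sets, 19 of 20 were higher in GFPlow, as Mrpl50 became -0.07. Mrpl37 read 9.77 in GFPlow and 8.96 in GFPhigh (0.81), and 9.53 in Dox + and 9.38 in Dox - (0.16). Mrpl38 read 9.65 in GFPlow and 8.87 in GFPhigh (0.79), and 10.06 in Dox + and 9.49 in Dox - (0.57). Mrpl58, a peptidyl-tRNA hydrolase that frees stalled chains, read 11.12 in GFPlow and 10.35 in GFPhigh (0.77), and 10.18 in Dox + and 9.88 in Dox - (0.29).

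Mrpl45, which helps to hold the ribosome at the inner membrane, read 10.37 in GFPlow and 9.63 in GFPhigh (0.73), and 8.91 in Dox + and 8.15 in Dox - (0.76). Mrps30, a large subunit protein despite its name, read 10.18 in GFPlow and 9.62 in GFPhigh (0.55), and 10.17 in Dox + and 9.69 in Dox - (0.48). Mrpl57 differed by 0.71 in the sorted cells and 0.62 in the induced crypts, and Mrpl49 by 0.55 and 0.57. Mrpl54 and Mrpl50 had the widest gaps of this group in the induced crypts, 0.89 and 0.87, beside 0.47 and 0.28 in the sorted cells. The second probe set of Mrpl50 gave -0.43 in the sorted cells and 0.61 in the induced crypts.

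Mrpl44, a protein with a fold like that of ribonuclease III, had probe sets on both sides of 0 in the induced crypts. On its brightest probe set it read 10.93 in GFPlow and 10.37 in GFPhigh (0.55), and 10.38 in Dox + and 10.79 in Dox - (-0.41). The other 3 probe sets were all higher in Dox +, by 0.38, 0.46 and 1.14, so that the mean of the 4 was 0.40. Mrpl39 read 12.43 in GFPlow and 12.09 in GFPhigh (0.34), and 11.41 in Dox + and 11.42 in Dox - (-0.01), where its second probe set gave 0.76.

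Mrpl51 read 13.37 in GFPlow and 13.25 in GFPhigh (0.12), and 12.79 in Dox + and 12.94 in Dox - (-0.15). Mrpl43 read 11.56 in GFPlow and 11.52 in GFPhigh (0.05), and 10.96 in Dox + and 11.12 in Dox - (-0.16). Both were higher in GFPlow and lower in Dox + by small amounts. Mrpl41 read 11.85 in GFPlow and 11.65 in GFPhigh (0.20), and 10.89 in Dox + and 10.79 in Dox - (0.10). Mrpl52 read 12.92 in GFPlow and 12.56 in GFPhigh (0.36), and 12.73 in Dox + and 12.37 in Dox - (0.37), and its brighter other probe sets gave 0.59 and 0.70 in the sorted cells. The rest of this group, Mrpl40, Mrpl42, Mrpl46 and Mrpl48, differed by 0.17, 0.38, 0.59 and 0.51 in the sorted cells and by 0.24, 0.26, 0.23 and 0.26 in the induced crypts.

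Mrps36 stands apart, because the protein is now known as a subunit of the 2-oxoglutarate dehydrogenase complex rather than of the ribosome. It read 11.41 in GFPlow and 11.38 in GFPhigh (0.03), and 10.19 in Dox + and 9.75 in Dox - (0.44).

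**Figure D3:**
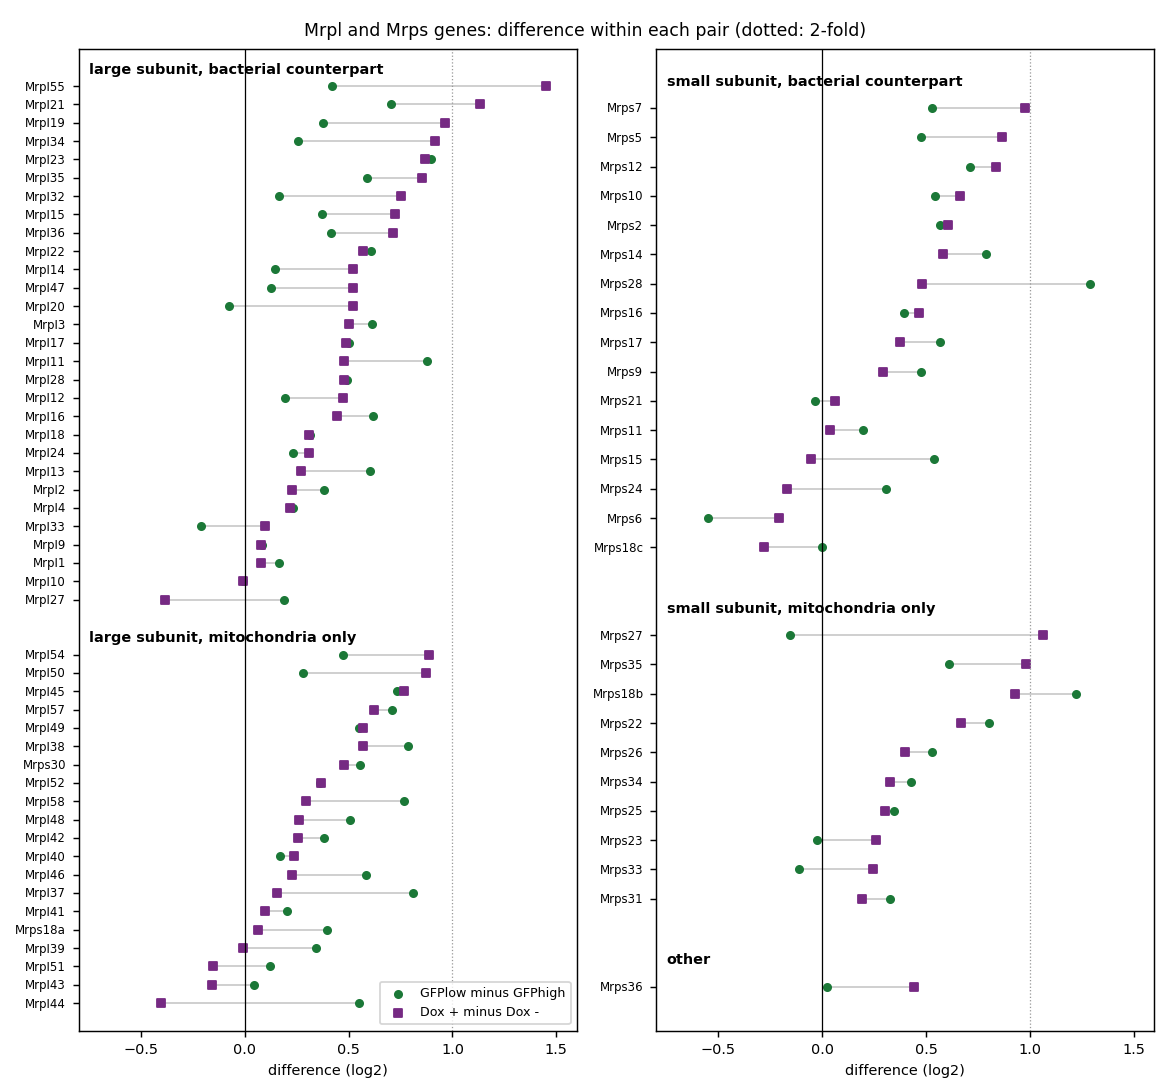
Difference (log2) of each of the 76 genes, GFPlow minus GFPhigh as green circles and Dox + minus Dox - as purple squares, grouped by subunit and by whether bacteria have a counterpart. Most symbols lie between 0 and 1, and all 20 large subunit proteins found only in mitochondria lie right of 0 in the sorted cells.

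By subunit, the medians were close. The large subunit (49 genes) had a median of 0.38 in the sorted cells and 0.47 in the induced crypts, and the small subunit (26 genes) 0.48 and 0.39. Genes with a bacterial counterpart (45) had medians of 0.39 and 0.48, and genes without one (30) 0.45 and 0.30. These groups differ by less than the width of any of them, and no test of the difference was possible.

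Across the pairs, which share no array, 60 of the 76 genes (78.9%) were higher in both GFPlow and Dox +, whereas 37.4% of the 9023 genes measured in both pairs were. Higher in GFPlow alone were 9.21% of the 76 and 16% of all genes, higher in Dox + alone 7.89% and 17.9%, and lower in both 3.95% and 28.6%. Only in GFPlow were 7 higher (Mrpl27, Mrpl39, Mrpl43, Mrpl44, Mrpl51, Mrps15 and Mrps24) and only in Dox + 6 (Mrpl20, Mrpl33, Mrps21, Mrps23, Mrps27 and Mrps33). Mrpl10, Mrps6 and Mrps18c were lower in both, Mrpl10 by -0.01 in each. The 2 differences of Mrpl10 were the same number (-0.009435), and so were those of another Mrps23 probe set (0.276129). Ndufb10, a respiratory chain gene, had 0.157901 in the sorted cells and -0.157901 in the induced crypts. The values of the pairs may thus not be fully separate, so agreement between pairs cannot be read as 2 independent results. At least 1.5-fold higher in both were 9 genes, namely Mrpl21, Mrpl23, Mrpl35, Mrpl45, Mrpl57, Mrps12, Mrps18b, Mrps22 and Mrps35, which is 11.8% of the 76, beside 7.09% of all genes. They make up 45% of the 20 genes past 1.5-fold in the sorted cells and 40.9% of the 22 in the induced crypts. Over the 76 genes the 2 differences correlated with Pearson r = 0.39 and Spearman rho = 0.43, beside 0.29 and 0.39 over the 9023 genes. These correlations are across genes, which share their arrays and are not replicates.

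**Figure D4:**
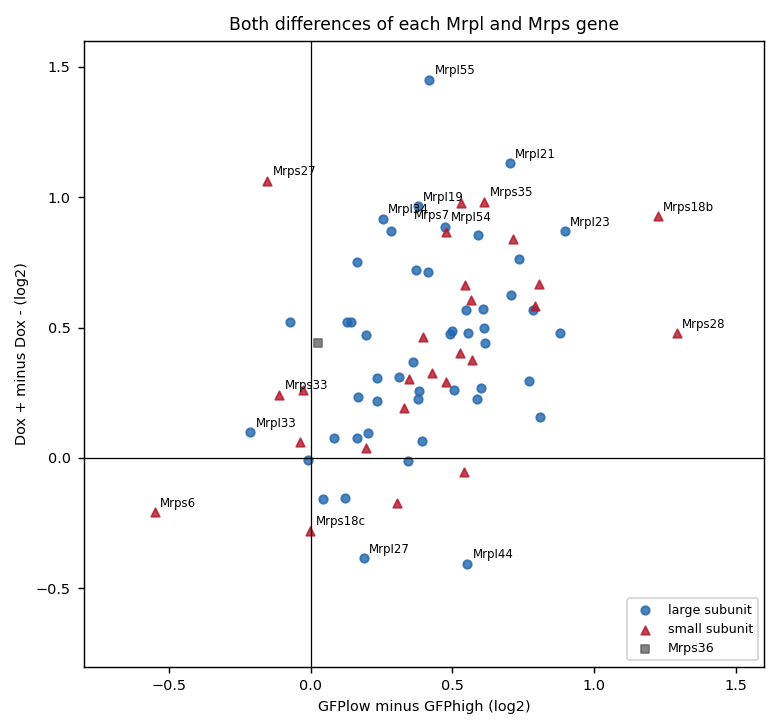
Difference of each of the 76 genes in the induced crypts (Dox + minus Dox -, log2, vertical) against that in the sorted cells (GFPlow minus GFPhigh, log2, horizontal), with large subunit genes as circles, small subunit genes as triangles and Mrps36 as a square. The upper right area holds 60 genes, and Mrps27, Mrpl55, Mrps28 and Mrps6 lie far from the bulk.

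Of the genes with more than 1 measured probe set (27 in each pair), 21 had all their probe sets on the same side of 0 in the sorted cells and 19 in the induced crypts. The exceptions were Mrpl15, Mrpl27, Mrpl28, Mrpl50, Mrps23 and Mrps9 in the sorted cells, and Mrpl15, Mrpl21, Mrpl28, Mrpl39, Mrpl44, Mrpl52, Mrps14 and Mrps9 in the induced crypts. For Mrpl15, which has 6 measured probe sets, the differences ran from -0.75 to 0.37 in the sorted cells and from -0.05 to 0.83 in the induced crypts. Its chosen probe set read 12.10 in GFPlow and 11.73 in GFPhigh, and 11.51 in Dox + and 10.79 in Dox -. Both negative ends belong to 1 probe set, at 5.97 to 6.92 over the arrays. The chosen probe set of 31 of the 76 genes has a name ending in _x_at, _s_at or _a_at, which marks probes that can match several transcripts.

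The genes that build and serve the mitochondrial ribosome were examined as lists. For this and the later lists the base is all measured genes, of which 53.2% were higher in GFPlow and 55% in Dox +. Mitochondrial ribosomal proteins that do not carry an Mrp name were higher in GFPlow and Dox + for 4 of 4 measured genes, with medians of 0.68 and 0.28. Among them Chchd1, a small subunit protein, read 12.09 in GFPlow and 11.27 in GFPhigh (0.82), and 12.06 in Dox + and 11.81 in Dox - (0.25). Ptcd3, another pentatricopeptide repeat protein, differed by 0.60 and 0.69, Gadd45gip1 by 0.76 and 0.20, and Dap3 by 0.46 and 0.32.

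Assembly factors of the mitochondrial ribosome had 22 of 26 genes higher in GFPlow (median 0.31) and 22 of 26 in Dox + (median 0.35), and spread more widely than the ribosomal proteins. Over the 19 of them left without probe sets prone to match several transcripts, the medians were 0.53 and 0.55, and with loess that of the induced crypts was 0.23. Past 2-fold in favour of Dox + were Mettl17 (1.98), the GTPase Noa1 (1.48), Mterf4 (1.14) and the ribosomal RNA methyltransferase Mrm3 (1.05). In the sorted cells the ends were Tfb1m, which methylates the small subunit ribosomal RNA (1.32), and the GTPase Gtpbp10 (-1.41). Gtpbp10 read 6.62 in GFPlow and 8.03 in GFPhigh, and 9.43 in both Dox + and Dox -. Translation factors of mitochondria had medians of 0.35 (9 of 12 higher) and 0.48 (12 of 12 higher), with the messenger RNA stabiliser Lrpprc at 0.97 in favour of GFPlow and the ribosome recycling factor Mrrf at 1.02 in favour of Dox +.

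Genes for copying and transcribing mitochondrial DNA had medians of 0.20 (10 of 13 higher in GFPlow) and 0.37 (11 of 13 higher in Dox +). These medians depended on the probe sets. In the sorted cells the median was 0.71 over the 11 genes left without probe sets prone to match several transcripts, and 0.35 with the mean of a gene's probe sets. In the induced crypts it was 0.66 with that mean. The helicase Twnk differed by 0.98 in the sorted cells and by at least 1.5 in the induced crypts, where it reached the floor in Dox + and lay under the floor in Dox -. Trmt10c, which helps to process mitochondrial transcripts, differed by 0.73 and 1.24.

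The respiratory chain, which receives the products of the mitochondrial ribosome, was set beside these lists through its nuclear-encoded subunits. Complex I subunits had medians of 0.11 (23 of 32 higher in GFPlow) and 0.14 (21 of 32 higher in Dox +), with Ndufa10 at 0.60 and 0.55 and Ndufb6 at -0.47 in the sorted cells. Subunits of complexes II to V had medians of -0.01 (18 of 37 higher) and 0.14 (26 of 37 higher), and Cox7c (1.69 in favour of Dox +) alone was past 2-fold. Cox7c read 6.82 in Dox + and 5.13 in Dox -, the latter close to the floor. Over the alternatives the complex I median ran from 0.07 to 0.16 in the sorted cells and from 0.07 to 0.25 in the induced crypts. That of complexes II to V ran from -0.02 to 0.02 in the sorted cells and from 0.06 to 0.16 in the induced crypts.

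**Figure D5:**
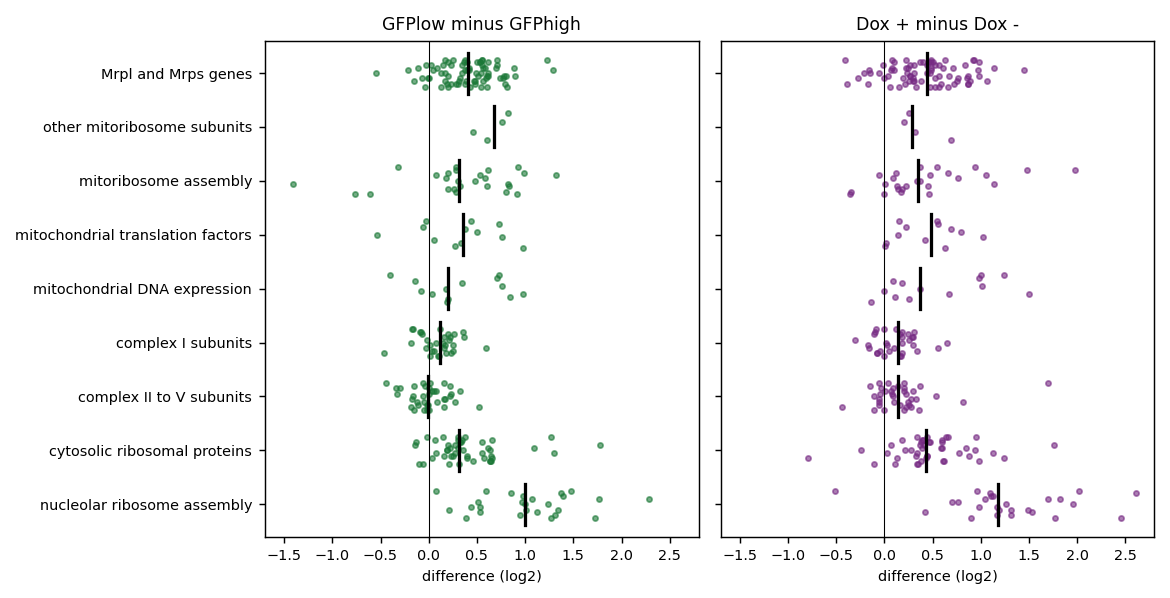
Difference (log2) of each measured gene in 9 lists, GFPlow minus GFPhigh on the left and Dox + minus Dox - on the right, with 1 point per gene and a bar at the median. The median of the Mrpl and Mrps genes (0.40 and 0.44) lies above those of the respiratory chain lists and below that of nucleolar ribosome assembly (1.0 and 1.18).

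Genes named for ribosomal proteins of the cytosol were mostly higher in the same groups. They were taken by symbol alone (Rpl, Rps or Rplp and a digit, without pseudogenes and Rps6k genes). The list thus also holds symbols such as Rps19bp1 and Rpl7l1. Of 46 measured, 41 were higher in GFPlow (median 0.32), and of 45 measured, 42 were higher in Dox + (median 0.43), with Rpl12 furthest at 1.77 and 1.76. The probe set of Rpl12 was dim. It read 6.82 in GFPlow and 5.05 in GFPhigh, the latter close to the floor, and 8.18 in Dox + and 6.42 in Dox -. Cytosolic ribosomal protein genes have many near-identical copies in the genome, so their probe sets are the less certain. Without probe sets prone to match several transcripts the medians were 0.57 over 19 genes in the sorted cells and 0.65 over 18 in the induced crypts, beside 0.39 and 0.46 for the Mrpl and Mrps genes. Nucleolar ribosome assembly genes, which build the cytosolic ribosome, had medians of 1.0 and 1.18, with Wdr12 at 2.29 in favour of GFPlow and Rrp1b at 2.60 in favour of Dox +. At least 2-fold higher were 13 of 26 in GFPlow and 19 of 26 in Dox +, beside 8.81% and 6.93% of all measured genes. Whether these lists differ from the mitochondrial ribosomal protein genes could not be tested with 1 array per group.

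Markers of division and of cell types differed in both comparisons. Genes of G2 and mitosis had a median of 2.27 in favour of GFPlow (14 of 14 higher, Cdk1 by 3.52) and of -0.72 in Dox + (14 of 14 lower, Aurkb by -1.24), so they lay in opposite directions in the pairs while the 76 genes lay in the same one. Colonocyte markers were lower in GFPlow for 9 of 9 genes, with a summed linear signal of 104136 in GFPlow and 176092 in GFPhigh, and in Dox + for 6 of 9, with 111768 in Dox + and 129998 in Dox -. Enteroendocrine markers were lower in GFPlow for 5 of 6 measured genes (4308 in GFPlow and 9884 in GFPhigh) and in Dox + for 7 of 7 (2387 in Dox + and 13048 in Dox -). Goblet markers summed to 199161 in GFPlow and 160574 in GFPhigh (7 of 8 higher), and to 129077 in Dox + and 181922 in Dox - (7 of 8 lower). Of the immune and stromal lists, 1 to 3 myeloid genes of 7 reached the floor on the sorted arrays and 4 on each crypt array, summing to 169 in GFPlow, 101 in GFPhigh, 323 in Dox + and 469 in Dox -. Fibroblast genes summed to 132 in GFPlow, 123 in GFPhigh, 178 in Dox + and 451 in Dox -, with Col1a1, Col1a2, Col3a1, Pdgfra and Dcn under the floor throughout. Of the other fibroblast genes, Vim read 6.64 in Dox + and 8.43 in Dox -, and Pdgfrb 4.73 and 5.32. T cell genes summed to 131, 86.2, 189 and 190 in the order GFPlow, GFPhigh, Dox + and Dox -, with Cd3e, Cd3g, Cd4 and Cd2 under the floor. B and plasma cell genes summed to 54.2, 66.2, 69.1 and 244 in the same order, with Cd79a, Ms4a1 and Cd79b under the floor. No gene of that list reached the floor in GFPlow or Dox +. Ighm alone did in GFPhigh (5.14), and Jchain alone in Dox - (7.53, beside 4.32 in Dox +). All summed signals include values under the floor as deposited. In bulk RNA from sorted cells or from crypts, more cells of a type and more RNA per cell cannot be told apart. The part of these markers in the shift of the ribosomal protein genes was not tested.

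Since the 76 genes tended to lie on the same side, their promoters were read for letters they might share. RefSeq windows from 250 bases before to 50 bases after the start (GRCm38.p6) were found for 67 of the 76 genes, 73 windows in all, and not for Mrpl4, Mrpl13, Mrpl15, Mrpl19, Mrpl38, Mrpl54, Mrps28, Mrps34 and Mrps35. Letters were searched on both strands for 4 motifs, and 3 of them were more frequent than in the 10399 windows of measured genes. The ETS core CCGGAAG was in 34.2% of the members' windows, beside 18.6% of those of measured genes and 8.86% of all 32851 windows. The YY1 core ATGGCGG was in 16.4%, beside 8.24% and 4.05%, and the NRF1 core GCATGCG in 11%, beside 6.60% and 3.58%. For the E-box CACGTG, the letters bound by Myc, the share was 9.59%, beside 10.2% and 7.15%. Its 7 windows among the members belong to 5 genes, because Mrpl2 has several overlapping windows. None of the 4 motifs was found in 32 of the 73 windows. GC content was 58.7% in the median window of the members, 60.7% in that of measured genes and 52.7% over all windows. A match is a string of letters and says nothing of binding in these cells.

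The differences of genes with and without each motif were set side by side, with no test. The 25 genes with an ETS core had medians of 0.39 in the sorted cells and 0.37 in the induced crypts, and the 42 without one 0.40 and 0.44. With a YY1 core (12 genes) the medians were 0.44 and 0.52, and without one 0.38 and 0.37. With an NRF1 core (8 genes) they were 0.25 and 0.29, and without one 0.39 and 0.40. The 5 genes with an E-box had medians of 0.38 and 0.23, and the 62 without one 0.39 and 0.42.

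Many of the genes start back to back with a neighbour. In 27 of the 73 windows (37.0%) another gene started on the opposite strand within 1000 bases upstream, beside 18.2% of the windows of measured genes and 11.3% of all windows. The 27 windows belong to 25 genes, because Mrpl2 has several overlapping windows. In the sorted cells 13 of 17 measured neighbours were higher in GFPlow (median 0.18), beside 53.2% of all measured genes. In the induced crypts 9 of 15 were higher in Dox + (median 0.14), a share near the 55% of all measured genes. Mrpl46 and Mrps11 are counted among these neighbours. They are each other's neighbour, 42 bases apart, and differed by 0.59 and 0.19 in the sorted cells and by 0.23 and 0.04 in the induced crypts. Mrps12 lies 147 bases from Sars2, the mitochondrial seryl-tRNA synthetase, which differed by 0.27 and 0.16 where Mrps12 differed by 0.71 and 0.84. Mrpl18 starts 238 bases from Tcp1, a chaperonin subunit that differed by 0.87 and 0.85, beside 0.31 and 0.31 for Mrpl18. Mrps27 and its neighbour Ptcd2, another pentatricopeptide repeat gene, both stood at -0.15 in the sorted cells, but at 1.06 and 0.15 in the induced crypts. The differences of Ptcd2 were the same number with opposite signs (-0.153657 and 0.153657), like those of Ndufb10. Its values in the pairs may thus not be fully separate.

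The following 6 promoters are shown because their genes carry the results above, from 250 bases before the start to base 30 after it, 5′ to 3′ on the strand of the gene, with matches to the 4 motifs on either strand in capitals. Mrps18b (high in both GFPlow and Dox +) is at chr17:35916411-35916690 on the minus strand. Mrps12 (back to back with Sars2) is at chr7:28741792-28742071 on the minus strand. Mrpl21 (2-fold higher in Dox +) is at chr19:3282792-3283071 on the plus strand. Mrpl46 (back to back with Mrps11) is at chr7:78783060-78783339 on the minus strand. Mrpl55 (furthest in Dox +) is at chr11:59202236-59202515 on the plus strand. Mrps6 (lower in GFPlow and Dox +) is at chr16:92058086-92058365 on the plus strand.
Mrps18b: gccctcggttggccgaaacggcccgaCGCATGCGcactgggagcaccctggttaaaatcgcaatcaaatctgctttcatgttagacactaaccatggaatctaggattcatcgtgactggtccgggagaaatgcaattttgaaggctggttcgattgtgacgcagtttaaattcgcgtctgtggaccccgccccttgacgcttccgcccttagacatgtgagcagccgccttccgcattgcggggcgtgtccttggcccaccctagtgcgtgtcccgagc
Mrps12: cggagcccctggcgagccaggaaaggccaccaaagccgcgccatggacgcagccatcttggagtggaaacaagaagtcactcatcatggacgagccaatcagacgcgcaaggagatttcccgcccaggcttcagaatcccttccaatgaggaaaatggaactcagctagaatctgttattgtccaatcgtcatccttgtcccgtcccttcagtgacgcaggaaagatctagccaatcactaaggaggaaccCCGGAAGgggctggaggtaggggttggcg
Mrpl21: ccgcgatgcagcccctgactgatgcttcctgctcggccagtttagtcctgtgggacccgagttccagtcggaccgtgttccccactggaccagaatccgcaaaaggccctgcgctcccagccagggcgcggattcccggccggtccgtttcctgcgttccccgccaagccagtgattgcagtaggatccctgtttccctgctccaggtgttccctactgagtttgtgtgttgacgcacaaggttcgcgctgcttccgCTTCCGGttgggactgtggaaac
Mrpl46: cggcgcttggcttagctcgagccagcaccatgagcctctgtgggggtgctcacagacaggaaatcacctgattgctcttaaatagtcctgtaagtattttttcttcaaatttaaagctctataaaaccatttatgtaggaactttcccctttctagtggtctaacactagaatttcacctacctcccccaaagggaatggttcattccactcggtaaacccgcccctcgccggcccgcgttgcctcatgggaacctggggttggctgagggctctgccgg
Mrpl55: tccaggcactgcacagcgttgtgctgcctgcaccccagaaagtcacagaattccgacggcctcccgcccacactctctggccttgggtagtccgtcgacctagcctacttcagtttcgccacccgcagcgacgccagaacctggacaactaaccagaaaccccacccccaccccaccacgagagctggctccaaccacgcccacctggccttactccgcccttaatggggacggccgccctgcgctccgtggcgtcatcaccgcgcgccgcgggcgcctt
Mrps6: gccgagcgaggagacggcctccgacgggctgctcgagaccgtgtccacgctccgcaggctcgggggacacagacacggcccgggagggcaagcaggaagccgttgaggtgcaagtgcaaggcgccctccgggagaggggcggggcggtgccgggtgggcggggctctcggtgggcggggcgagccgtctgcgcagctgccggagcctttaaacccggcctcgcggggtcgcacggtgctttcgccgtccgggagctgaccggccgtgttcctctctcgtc

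Of these 6 windows, 3 hold a motif. Mrpl55, with the widest gap in the induced crypts, held none of the 4 motifs, and neither did Mrpl46 or Mrps6. In Mrps18b the NRF1 letters overlap on both strands from position -224, and in Mrps12 and Mrpl21 the ETS letters start at bases 2 and 8 of the transcript. The full window of Mrps18b also holds the ETS letters, which reach past the last base printed.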

How the data were processed

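The 4 Affymetrix arrays were read from the authors' deposited table of log2 values for 45101 probe sets, which per the submitters' processing notes were made with GCRMA, a background correction, quantile normalization and summary method whose version the notes do not state. The brightest probe set stood for each gene among the 34958 probe sets with 1 gene symbol in the platform annotation. Values under a floor of 5 were set to 5 for differences, whereas sums of linear signal used the values as deposited. A gene was measured in a pair if at least 1 array reached the floor. Differences were taken within a pair only, GFPlow minus GFPhigh and Dox + minus Dox -. All 76 gene identifiers were found in the RefSeq table (GRCm38.p6), which also supplied the promoters. Calls are folds of 1.5 and 2. No test was run, and the steps were tested on simulated data.

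The members and lists were chosen with earlier results of these data known. Genes named with values were those past 2-fold, the 8 largest differences in each direction and the 3 nearest 0 per pair, the 3 highest and 3 lowest levels, those with opposing probe sets, and genes chosen by role. The other members were added so that each is accounted for. The range of levels used for the comparison with all genes was added later. Alternatives were floors of 4 and 6, no floor, quantile and loess normalization, the mean of a gene's probe sets, and dropping every probe set with the suffix _x_at, _s_at or _a_at. Python 3.11.15, numpy 2.4.6, pandas 2.3.3, scipy 1.17.1 and statsmodels 0.14.6 were used.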

Additional observations from a re-analysis of the deposited data

How the results depend on the processing

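The shift of the 76 genes kept its direction under all 7 alternatives, but floors of 4 and 6 and no floor could not alter it. The lowest value of the 76 was 6.20, above each of these floors. Of 308 counts of members and listed genes, with these settings included, 299 stayed within 1.5 times. No paired analysis was possible because each group is 1 array. In the sorted cells the median was 0.42 with loess, 0.42 with the mean over a gene's probe sets and 0.39 once those with the suffix _x_at, _s_at or _a_at were dropped. In the induced crypts it was 0.36 with loess, 0.39 with quantile normalization, 0.39 with the mean and 0.46 without those probe sets. Genes at least 1.5-fold lower in GFPlow numbered 1 with the mean (Mrps6) and 2 without those probe sets (Mrps6 and Mrpl15). Leaving them out kept 58 members in the induced crypts, of which 1 (Mrps27) was 2-fold higher in Dox +, and Mrpl21 became -0.013. Without them the genes higher in Dox + were 15 of 18 for cytosolic ribosomal proteins, 6 of 6 for small subunit proteins found only in mitochondria and 14 of 17 for the small subunit. Those higher in GFPlow were 17 of 19 for cytosolic ribosomal proteins, 8 of 11 for small subunit proteins with bacterial counterparts and 13 of 17 for the small subunit. Fewer genes had a value under that setting, which also moved the medians of the cytosolic ribosomal, assembly and mitochondrial DNA lists by over 1.5 times in at least 1 pair, as given with them. Of 94 named values, 12 changed sign under some alternative. Over all genes of the induced crypts, 661 were 2-fold higher in Dox + and 510 lower, but 526 higher and 608 lower after loess. With 1 array per group, signal over background bounds only the dimmest probe sets, and no spread is known.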
